A study of Homo sapiens with 6 samples.

Results

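Iron handling and ferroptosis genes were examined in CAL62 cells treated with erianin. The list held 10 genes: the lipid peroxide reductase GPX4, the ubiquinone reductase AIFM2, the ferritin chains FTL and FTH1, the ferritin cargo receptor NCOA4, the transferrin receptor TFRC, the iron exporter SLC40A1, the iron sensor IREB2 and the lipid enzymes ACSL4 and LPCAT3. A gene was found by matching its symbol to an Ensembl identifier of the count table, and where an identifier stood on several rows the row with most counts was kept. This gave 9 of the 10 genes, among 39168 identifiers in all, and the 9 were among the 12821 genes that passed the filter on low counts. NCOA4 was not analysed here, because the identifier that the reference pairs with it matched no row. CAL62 is an established cell line of human anaplastic thyroid carcinoma, labelled as wild type and as 1 cell line throughout. The erianin group held 3 libraries of cells exposed to 50 nM erianin, a natural bibenzyl, for 48 h, and the DMSO group held 3 libraries of cells given the solvent for 48 h. Between 25776301 and 34107727 reads were counted on named genes per library.

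Ferroptosis is a form of cell death in which iron drives the oxidation of membrane phospholipids. GPX4 reduces phospholipid peroxides at the expense of glutathione, and AIFM2, also called FSP1, regenerates reduced ubiquinone at the membrane, while ACSL4 and LPCAT3 load polyunsaturated fatty acids into the phospholipids that are oxidised. Cells take up transferrin-bound iron through TFRC, store it in ferritin shells built of FTL and FTH1 chains, release it from ferritin by autophagy through NCOA4 and export it through SLC40A1, also called ferroportin. When iron is scarce, the iron regulatory proteins, encoded by IREB2 and ACO1, bind iron-responsive elements, short RNA hairpins that block translation when they lie in a 5′ UTR and protect the transcript from decay when they lie in the 3′ UTR of TFRC.

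The iron-responsive elements of these transcripts are shown because they are the shared regulatory sequence of the ferritin, exporter and receptor genes. One principal GENCODE 29 transcript per gene was searched on its sense strand for a C, a 5-base stem arm, the 6-base loop CAGTGN with A, C or T as its last base, and a 5-base arm complementary to the first, with G-T pairs allowed. The capitals mark the unpaired C and the loop. The 5′ UTR matches lay in SLC40A1 at chr2:189580661-189580689 (minus strand), in FTH1 at chr11:61967574-61967602 (minus) and in FTL at chr19:48965335-48965363 (plus), on GRCh38.
SLC40A1: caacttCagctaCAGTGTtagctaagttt
FTH1: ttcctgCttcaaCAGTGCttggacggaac
FTL: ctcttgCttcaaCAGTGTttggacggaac
The 4 matches in the 3′ UTR of TFRC lay on the minus strand at chr3:196050979-196051007, chr3:196050575-196050603, chr3:196050510-196050538 and chr3:196050463-196050491, in transcript order.
TFRC match 1: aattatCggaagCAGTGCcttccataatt
TFRC match 2: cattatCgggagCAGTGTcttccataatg
TFRC match 3: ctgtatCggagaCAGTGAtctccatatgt
TFRC match 4: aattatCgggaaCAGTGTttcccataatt
Of 19653 coding genes searched, 13 (0.0661%) held such a match in the 5′ UTR and 81 (0.412%) in the 3′ UTR. The other members searched, GPX4, AIFM2, IREB2, ACSL4 and LPCAT3, held none by this pattern. A match is a description of letters, and binding was not measured.

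The libraries were compared first. DMSO replicate 3 stood apart: its distance to the other DMSO libraries, over log2 CPM (reads scaled to a common library size with TMM factors) of all tested genes, was 62.9 and 64.1, whereas DMSO replicates 1 and 2 were 37.2 apart and the erianin libraries 28.2 to 29 apart. From the erianin libraries, DMSO replicates 1 and 2 were 58.5 to 62.3 away and DMSO replicate 3 was 68.3 to 69.3 away. DMSO replicate 3 was thus at least as far from its own group as the other controls were from treated cells. The fitted fold changes and calls were therefore also computed without DMSO replicate 3. The thyroid transcription factor PAX8 had 15705 to 23024 reads per library in DMSO and 14680 to 15119 in erianin, and fell (log2 fold change -0.66, edgeR adjusted p = 0.00404), while the thyroid genes TSHR and NKX2-1 were at 0 and TG at 0 to 13. The immune marker PTPRC had at most 6 reads and the red cell gene HBB none, while the fibroblast marker COL1A1 had 779 to 1173 and PDGFRB at most 12. The descriptions give no detail on whether the 3 libraries of a group came from separate cultures, so p-values measure the spread between these libraries, which may be technical.

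Of the 9 genes, 2 rose in erianin-treated cells and none fell. The risers were TFRC and FTL, the genes of iron uptake and of ferritin light chain storage. A gene was called when edgeR's quasi-likelihood test on the raw counts gave a Benjamini-Hochberg adjusted p under 0.05, over all tested genes, with an absolute log2 fold change over 0.5. Against this count of 2 of 9 higher (22.2%), 5.37% of all tested genes were called higher, and against 0 of 9 lower, 3.36% were called lower. The members were chosen with earlier results of these data known, so the shares are a description and not a test of enrichment. On the adjusted p alone the members gave the same 2 higher and 0 lower, beside 7.22% and 7.69% of all genes. At an unadjusted p under 0.05, edgeR and DESeq2 each gave 2 higher and 0 lower. The erianin libraries lay entirely above the DMSO libraries for 3 members (33.3%), beside 19.5% of all genes, and entirely below for 0, beside 19.3%. The median log2 fold change was 0.08 over the 9 members and 0.0014 over all genes tested.

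**Figure D1:**
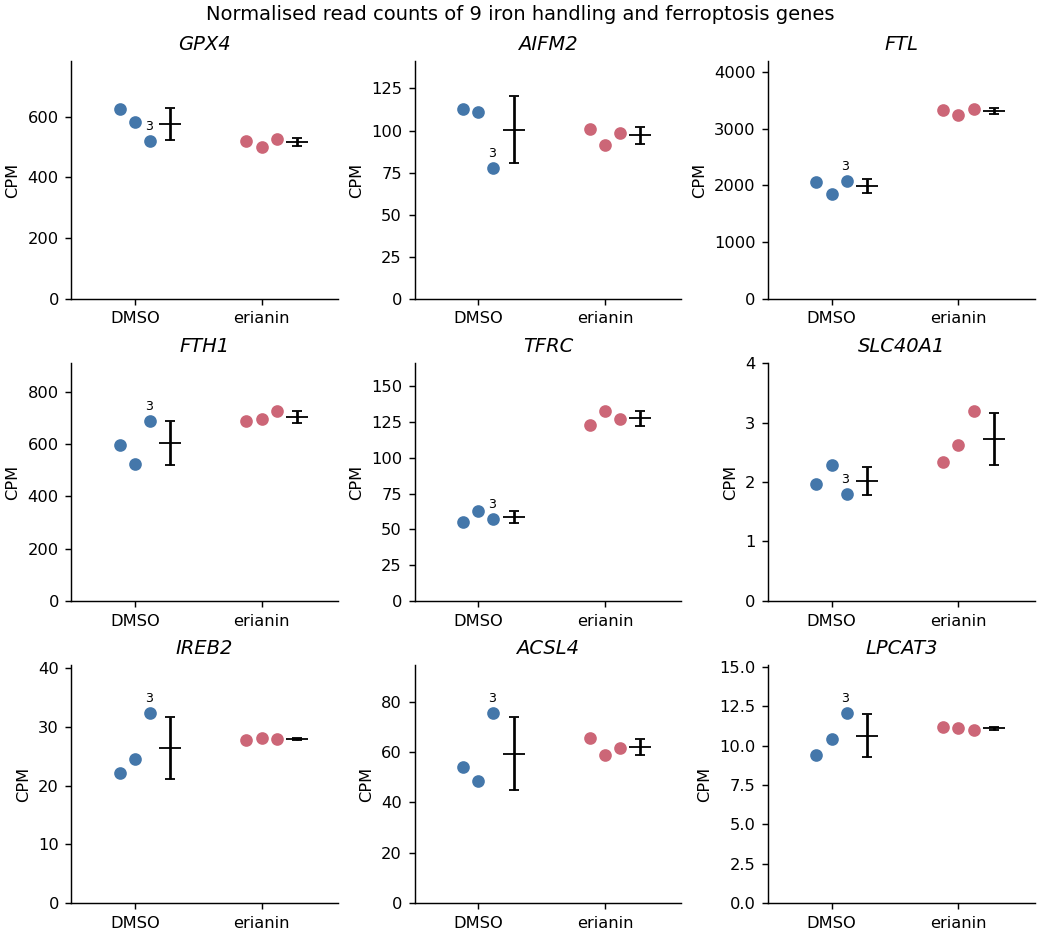
Normalised read counts (CPM, y axis from 0) of the 9 genes in the 3 DMSO (blue) and 3 erianin (red) libraries; bars give the mean and SD (n = 3), and the number 3 marks DMSO replicate 3. Groups are apart for FTL, TFRC and SLC40A1 and overlap for the other 6 genes.

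TFRC (ENSG00000072274, chr3:196027183-196082189, minus strand, GRCh38) imports transferrin-bound iron. Its level was 55.1, 62.9 and 57.6 CPM in DMSO replicates 1, 2 and 3 and 123, 133 and 127 CPM in the erianin replicates. Every erianin library was above every DMSO library, and DMSO replicate 3 lay between the other controls. The mean went from 58.5 ± 4 CPM (SD, n = 3) to 128 ± 4.79 CPM, a log2 fold change of 1.12 ± 0.08 (SE; 95% interval 0.94 to 1.31; 2.18-fold) with an adjusted p of 0.00101 by edgeR. TFRC was called in all 22 alternative settings, with log2 fold changes of 0.85 to 1.32. In these bulk libraries, more transcript per cell and a larger share of cells with the transcript cannot be told apart.

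FTL (ENSG00000087086, chr19:48965301-48966878, plus strand) encodes the ferritin light chain, which lines the iron core of the shell. It stood at 2050, 1850 and 2080 CPM in the DMSO libraries and at 3330, 3240 and 3350 CPM in the erianin libraries, so the groups were far apart relative to the spread within them. The mean was 1990 ± 128 CPM in DMSO and 3310 ± 57.2 CPM in erianin, a log2 fold change of 0.73 ± 0.08 (SE; 95% interval 0.55 to 0.91; 1.66-fold) with an edgeR adjusted p of 0.00263. FTL kept its direction in all 22 alternatives and its call in 18. The call was lost when each library's trend on the length behind the deposited TPM was removed (log2 fold change 0.45, edgeR adjusted p = 0.0784), also with the replicate block (0.47, 0.071) or with GC content (0.39, 0.151), and with limma on unfiltered TPM (0.93, 0.266). It was kept when annotated transcript length took the place of that length (0.57, edgeR adjusted p = 0.0309).

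FTH1 (ENSG00000167996, chr11:61959718-61967660, minus strand) encodes the heavy chain, the ferroxidase of the same shell, and was not called. Its level was 597, 523 and 689 CPM in DMSO and 687, 695 and 727 CPM in erianin. The lowest erianin library lay just under DMSO replicate 3 and above the other controls. The log2 fold change was 0.22 ± 0.11 (SE; 95% interval -0.02 to 0.47) with an edgeR adjusted p of 0.2. With limma on log2(TPM + 1) it was 0.43 (limma adjusted p = 0.0278), in a fit where the median gene was at 0.18. In 5 of 22 alternatives the adjusted p of FTH1 was under 0.05, and none called it. The 2 chains share 1 shell, so their reads were also set against each other within each library, a ratio chosen after the values were seen. There were 3.43, 3.53 and 3.02 FTL reads per FTH1 read in DMSO and 4.84, 4.67 and 4.61 in erianin. Without DMSO replicate 3, the lowest, the DMSO mean was 3.48. The ratio was higher in 3 of 3 erianin libraries (4.7 ± 0.118 against 3.33 ± 0.269, SD, n = 3), with a two-sided exact permutation p of 0.1, the smallest that 3 libraries against 3 can give.

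**Figure D2:**
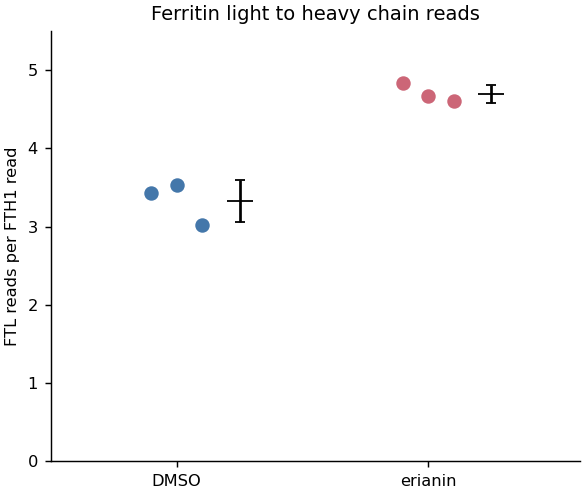
FTL reads per FTH1 read (y axis, from 0) in the DMSO (blue) and erianin (red) libraries, with the mean and SD (n = 3). The erianin libraries lie between 4.61 and 4.84 and the DMSO libraries between 3.02 and 3.53.

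SLC40A1 (ENSG00000138449, chr2:189560579-189583758, minus strand), the exporter of cellular iron, was the least abundant member. It had 48, 74 and 56 reads in DMSO and 80, 92 and 112 in erianin, or 1.97, 2.28 and 1.8 CPM against 2.34, 2.63 and 3.2 CPM. The groups did not overlap, by a margin of a few hundredths of a CPM between the nearest libraries. The log2 fold change of 0.43 ± 0.19 (SE; 95% interval -0.02 to 0.88) had an edgeR adjusted p of 0.179, and no alternative called it. IREB2 (ENSG00000136381, chr15:78437431-78501456, plus strand), an iron regulatory protein that is degraded when iron is plentiful, overlapped between groups. It ranged from 22.2 to 32.4 CPM in DMSO and from 27.7 to 28.1 CPM in erianin, with a log2 fold change of 0.08 (95% interval -0.26 to 0.42; edgeR adjusted p = 0.766).

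GPX4 (ENSG00000167468, chr19:1103926-1106791, plus strand), the central reductase of the pathway, stood at 626, 583 and 520 CPM in DMSO and at 519, 500 and 527 CPM in erianin. The groups overlapped only through DMSO replicate 3, which lay among the erianin libraries. The log2 fold change was -0.16 ± 0.08 (SE; 95% interval -0.36 to 0.04) with an edgeR adjusted p of 0.243. On log2(TPM + 1) with limma it was 0.04, in a fit where the median gene was at 0.18, so relative to the median gene it was -0.14. In 4 of 22 alternatives the adjusted p of GPX4 was under 0.05, and none called it. With all 6 libraries, these were the edgeR offset on annotated transcript length (-0.30, adjusted p = 0.0318) and that on the length behind the TPM with GC content (-0.26, 0.0387). The median gene in those fits was at -0.08 and -0.16. AIFM2 (ENSG00000042286, chr10:70098223-70132934, minus strand) had 113, 111 and 77.6 CPM in DMSO and 101, 91.6 and 98.7 CPM in erianin. Here DMSO replicate 3 was the lowest of all 6 libraries and the other controls were the highest. The log2 fold change was -0.05 ± 0.14 (SE; 95% interval -0.39 to 0.28), with an edgeR adjusted p of 0.842.

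ACSL4 (ENSG00000068366, chrX:109624244-109733403, minus strand) activates arachidonic and related acids to their CoA esters. It stood at 54.2, 48.5 and 75.7 CPM in DMSO and at 65.6, 59 and 61.6 CPM in erianin, so DMSO replicate 3 was above and the other controls below every erianin library. Its log2 fold change was 0.06 ± 0.16 (SE; 95% interval -0.31 to 0.44; edgeR adjusted p = 0.836). LPCAT3 (ENSG00000111684, chr12:6976186-7018510, minus strand), which inserts such acids into lysophospholipids, ranged from 9.44 to 12.1 CPM in DMSO and from 11 to 11.2 CPM in erianin. Its log2 fold change was 0.05 (95% interval -0.23 to 0.34; edgeR adjusted p = 0.814). For the members that were not called, these intervals allow changes in either direction and do not show that the levels were equal.

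DMSO replicate 3 touched the members unequally. It was the highest control for 5 members, the lowest for 3 and in the middle for TFRC, and its CPM over the mean of the other controls ran from 0.692 for AIFM2 to 1.47 for ACSL4, with 1.07 for FTL and 0.975 for TFRC. Without it, the fold changes of TFRC and FTL were nearly as before, at 1.10 and 0.76 on the log2 scale. The adjusted p fell below 0.05 for 7 of the 9 members in edgeR, with log2 fold changes of -0.24 for GPX4 (adjusted p = 1.12e-05), -0.21 for AIFM2 (0.000363), 0.33 for FTH1 (3.02e-07), 0.24 for IREB2 (0.00647) and 0.27 for ACSL4 (0.000316). None of these 5 reached the fold threshold, so TFRC and FTL were still the 2 called members. SLC40A1 (edgeR adjusted p = 0.186) and LPCAT3 (0.242) stayed above the threshold. The lower adjusted p-values were not particular to the members. Over all genes the calls rose from 688 higher and 431 lower of 12821 to 1485 and 797 of 13053. The coefficient of variation between libraries that edgeR fitted over all genes fell from 0.139 to 0.0421. The share of all genes that passed on the adjusted p alone is not given for this fit. The 7 of 9 and these adjusted p-values therefore have no baseline here and are not a result about the members.

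**Figure D3:**
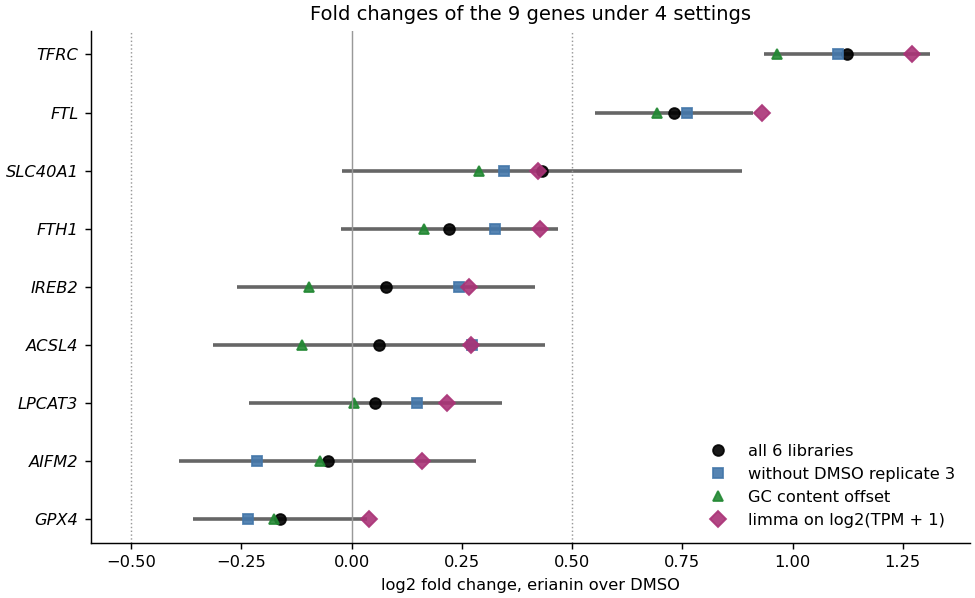
Log2 fold change (x axis, erianin over DMSO) of the 9 genes with all 6 libraries (black, with the 95% interval as a line), without DMSO replicate 3 (blue), with a GC content offset (green) and with limma on log2(TPM + 1) (purple); dotted lines mark the fold threshold of 0.5. TFRC and FTL lie beyond the threshold at every marker, and the other 7 lie within it.

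Levels were compared between genes as CPM per kilobase of the principal annotated transcript. FTL led with a mean of 2270 in DMSO and 3760 in erianin, 3.62 times GPX4 in DMSO, and its range over the 6 libraries did not meet that of GPX4. GPX4 (627 in DMSO, 561 in erianin) and FTH1 (490 and 572) overlapped. A gap of 15.8-fold in DMSO then separated FTH1 from AIFM2 (31 and 29.9). Next came TFRC (11.5 and 25), whose DMSO level overlapped with that of ACSL4 (11.1 and 11.6). TFRC and AIFM2 overlapped only through DMSO replicate 3, in which AIFM2 was at 23.9; without that library their ranges were apart. LPCAT3 (4.71 and 4.89) and IREB2 (4.16 and 4.39) overlapped with each other. SLC40A1 was last with 0.586 in DMSO and 0.791 in erianin, 7.1-fold under IREB2 in DMSO.

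**Figure D4:**
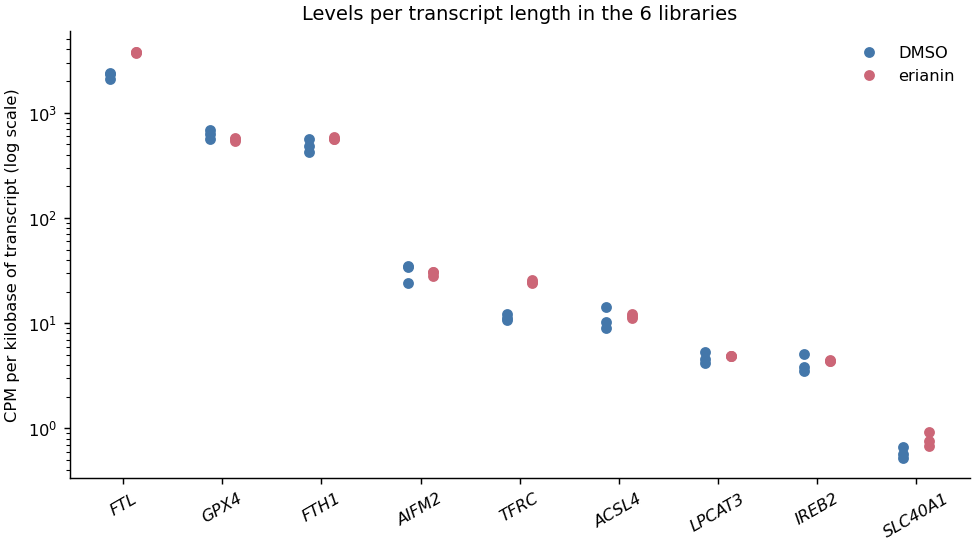
CPM per kilobase of transcript (y axis, log scale) of the 9 genes in the 3 DMSO (blue) and 3 erianin (red) libraries, in order of the DMSO mean. FTL, GPX4 and FTH1 lie at 425 or above in every library, and the erianin points of TFRC (24.1 to 26) lie above all ACSL4 points and below all AIFM2 points but that of DMSO replicate 3 (23.9).

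The deposited TPM put the same genes in a partly different order, with FTH1 above GPX4, ACSL4 above TFRC and IREB2 above LPCAT3 in DMSO. The length behind each TPM value was recovered as the ratio of count to TPM, which gives it only up to a constant. The constant was set so that the lowest shared ratio equalled 1 annotated principal transcript. Of 11777 genes, 593 (5.04%) held that ratio within 0.1%, FTL (878 bases) among them, so the equality for FTL follows from the scaling. On this scale the length was 10.5 times the principal transcript for GPX4, 7.57 times for FTH1, 4.25 times for TFRC and 2.05 times for SLC40A1. The median over all these genes was 3.75. GPX4 came to 9621 bases and FTH1 to 9304, more than the whole span of either gene, so these are not annotated lengths. FTL at 12800 to 14100 TPM in DMSO and 24600 to 26100 TPM in erianin is therefore scaled by a shorter length than the other members, which touches its level against other genes and not its ratio between groups.

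Both ferritin genes have many processed copies in the genome, and how reads that match several places were counted is not given in the sources used here. Of 24 rows for FTH1 pseudogenes 3 had reads, mainly FTH1P7 and FTH1P19, and they took 0.0186% to 0.055% of the reads on FTH1 and its copies together. Of 16 rows for FTL pseudogenes 2 had reads, FTLP12 and FTLP5, and they took at most 0.00441%. Whether counting used the strand is likewise not given, and 3 members share exonic bases with a gene on the opposite strand. LPCAT3 had 2102 reads over the 6 libraries and its partner EMG1 had 1766, so the value of LPCAT3 is uncertain. FTH1 had 126183 against 546 for BEST1, and AIFM2 had 18878 against 0 for H2AFY2.

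Promoters of 300 bases (250 before to 50 after the start, RefSeq on GRCh38.p14) were available for 9 of the 10 listed genes. NCOA4 was among them and FTH1 was not, so FTH1 was not searched. Both strands were searched. The antioxidant response element, written as TGACNNNGC, was found in 2 members, AIFM2 and NCOA4, beside 13.3% of 35116 promoters. The letters ACGTG, the core of the hypoxia response element, were found in GPX4, FTL and TFRC, beside 21.4% of promoters. CACGTG, an E-box that contains those letters, was found in no member searched and in 7.26% of promoters. A gene counted when any of its promoters matched, while the shares are of single promoters, so the counts and shares differ in unit. No match says only that these letters are not in this window.

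Other genes of iron handling and ferroptosis were then counted by role. Of 75 such genes 67 were tested, and 6 (8.96%) were called higher and 2 (2.99%) lower by edgeR, beside the 5.37% and 3.36% of all genes. This list too was chosen with earlier results of these data known, so the shares are a description. The median log2 fold change of its tested genes was -0.02, with 30 fitted higher and 37 lower. On the adjusted p alone 8 were higher (11.9%) and 6 lower (8.96%), beside 7.22% and 7.69% of all genes. The groups did not overlap for 15 genes (22.4%) with erianin above and for 17 (25.4%) with erianin below, beside 19.5% and 19.3% of all genes. The genes ALOX5, ALOX15, ALOX15B, TF, FTMT, HEPH, CP and HAMP did not pass the filter on low counts. Each role below holds few genes, so a role without a call is not a result about that role.

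In iron uptake, 2 of 7 tested genes were called higher and 1 lower, beside 5.37% and 3.36% of all genes. SLC39A8, a metal ion importer, went from 7.39, 8.07 and 9.12 CPM to 12.8, 13.6 and 14.8 CPM (log2 fold change 0.74, edgeR adjusted p = 0.0107). LCN2, which binds iron-loaded siderophores, went from 14.9, 17.7 and 25.9 CPM to 35.9, 31.8 and 31.1 CPM (0.75, edgeR adjusted p = 0.0417). STEAP3, the endosomal reductase that acts on iron delivered by the transferrin receptor, fell from 65.6, 74 and 59 CPM to 45, 43.3 and 44.6 CPM (log2 fold change -0.58, edgeR adjusted p = 0.0114). TFRC and STEAP3, which serve the same import route, thus moved in opposite directions. The groups did not overlap for either, as for 19.5% of all genes with erianin above and 19.3% with erianin below. TFRC kept its call in all 22 alternative fits and STEAP3 in 15. SLC39A14, another importer, had a log2 fold change of 0.29 (edgeR adjusted p = 0.0709).

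None of the 5 tested genes of storage and iron chaperones and neither iron-sensing gene was called. Of all tested genes, 5.37% were called higher and 3.36% lower. MT2A, a metallothionein, was at 8660 ± 351 CPM in DMSO and 7100 ± 92 CPM in erianin (log2 fold change -0.29, edgeR adjusted p = 0.0378, under the fold threshold). HSPB1, a small heat shock protein, was at 0.10 on the log2 scale. ACO1, the other iron regulatory protein, had a log2 fold change of -0.02 (95% interval -0.26 to 0.22), and FBXL5, the ligase subunit that marks IREB2 for degradation, 0.08. The ferric reductase CYBRD1, grouped here with iron export and the 1 tested gene there, was at -0.09. In haem handling 1 of 8 genes was called: HMOX1, which breaks haem down and frees its iron, rose from 26.5, 24.2 and 24.6 CPM to 113, 105 and 120 CPM (log2 fold change 2.16 ± 0.09, SE; edgeR adjusted p = 0.000129). BLVRA, which acts on the biliverdin that HMOX1 makes, was at 0.03 on the log2 scale. ALAS1, the first enzyme of haem synthesis, was at 0.27 (edgeR adjusted p = 0.0305), under the fold threshold. None of 9 mitochondrial iron and iron-sulphur cluster genes was called, with SLC25A28 at -0.11 and ISCU at 0.23.

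The glutathione and selenoprotein arm, which supplies GPX4, had 2 of 12 genes called higher and 1 lower, beside 5.37% and 3.36% of all genes. TXNRD1, a selenoprotein reductase, went from 299, 312 and 313 CPM to 482, 489 and 483 CPM (log2 fold change 0.65, edgeR adjusted p = 0.00196). GCLM, the modifier subunit of the enzyme that starts glutathione synthesis, went from 17.2, 19.4 and 22.7 CPM to 26.2, 28.8 and 29.8 CPM (0.52, edgeR adjusted p = 0.0328). CHAC1, which degrades glutathione, fell from 37.1, 38.4 and 29.5 CPM to 21.7, 22.5 and 24.8 CPM (log2 fold change -0.60, edgeR adjusted p = 0.0203). The cystine importer had no call: SLC7A11, its transport subunit, was at 0.19 (95% interval -0.22 to 0.60) and its partner SLC3A2 at 0.49 (edgeR adjusted p = 0.175). SLC3A2 had 330, 363 and 189 CPM in DMSO and 410, 418 and 407 CPM in erianin. Without DMSO replicate 3 its log2 fold change was 0.24 and that of SLC7A11 was 0.38 (edgeR adjusted p = 1.26e-05 and 0.00499). Neither reached the fold threshold there. SLC7A11 was named after its value was seen. SEPHS2, which makes the selenium donor, was at -0.29 (edgeR adjusted p = 0.0762).

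Of 15 tested genes of lipid substrates and oxidation 1 was called, beside 5.37% of all genes called higher and 3.36% lower. SAT1, a polyamine acetyltransferase, rose from 214, 209 and 197 CPM to 387, 425 and 399 CPM (log2 fold change 0.96, edgeR adjusted p = 0.00102). The desaturases FADS1 (log2 fold change -0.45, edgeR adjusted p = 0.00754) and FADS2 (-0.45, 0.00655) passed the adjusted p and not the fold threshold, as did ACSL1 (0.45, 0.0375), an acyl-CoA synthetase related to ACSL4. These 3 genes, ALAS1, and EEFSEC (-0.49, edgeR adjusted p = 0.0108), the elongation factor for selenocysteine, were named after their values were seen. SCD, which makes monounsaturated acids, was at -0.15 and PEBP1 at -0.08. None of 8 suppressors that act apart from GPX4 was called, with PRDX6 at 0.09 and VKORC1L1 at -0.18 on the log2 scale. Beside the shares of all genes, none called among 8 is not a result about these suppressors.

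**Figure D5:**
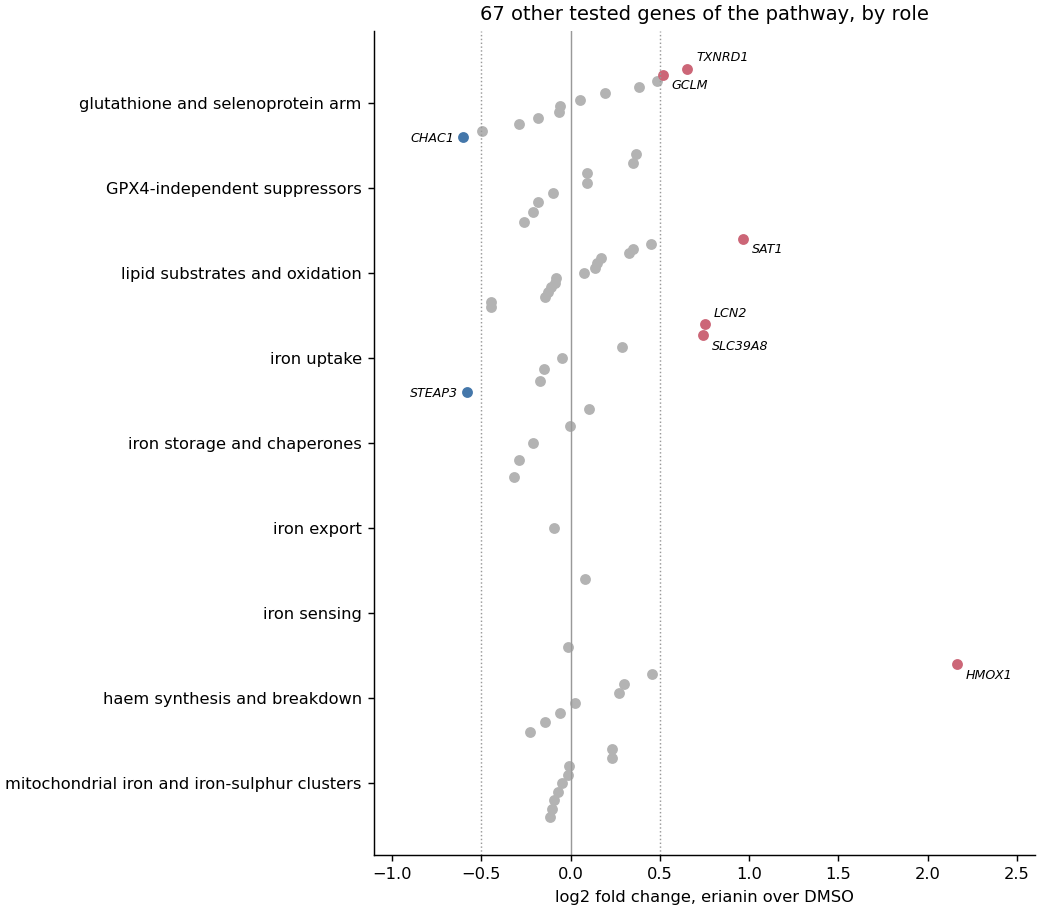
Log2 fold change (x axis, erianin over DMSO) of the 67 other tested genes of the pathway, by role (y axis; points within a role are spread vertically in order of value), with called genes in red (6 higher) or blue (2 lower) and named, and dotted lines at the fold threshold of 0.5. HMOX1 lies farthest out at 2.16, and most genes lie between the lines.

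The 8 calls differed in how far they rested on single libraries. HMOX1, SAT1 and TXNRD1 were called whichever erianin library was left out. The other 5 were not called in any of those 3 fits, with the highest edgeR adjusted p at 0.0689 for SLC39A8, 0.0725 for STEAP3, 0.1 for CHAC1, 0.149 for GCLM and 0.158 for LCN2. Without DMSO replicate 3, 8 of the 67 genes were called higher and 2 lower. In that fit 1485 of all 13053 tested genes were called higher and 797 lower, also more than with all 6 libraries. The additional pathway genes were GCLC (log2 fold change 0.50, edgeR adjusted p = 1.57e-06), the catalytic partner of GCLM, and ACSL3 (0.62, edgeR adjusted p = 1.49e-10), a synthetase of monounsaturated acyl-CoA. Promoters were available for 57 of the 75 genes. The TGACNNNGC element was found in 14 of them, ACGTG in 16 and CACGTG in 11. The shares of all single promoters were 13.3%, 21.4% and 7.26%. A gene counted when any of its promoters matched, so these gene counts cannot be read as an excess over those shares. Of the called genes GCLM and TXNRD1 held TGACNNNGC, and SAT1, SLC39A8, LCN2, CHAC1 and STEAP3 did not. The promoter of HMOX1 was not analysed here.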

How the data were processed

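Deposited were the authors' raw counts of reads on each gene, without normalization, and their TPM values, which use 1 length per gene (within 0.00363% over 9788 genes). The submitters' processing notes name fastp 0.23.2, STAR 2.7.10, featureCounts 2.0.1, StringTie 2.2.1 and GRCh38, also called hg38. The annotation and strand setting are not given in the sources used here. Over the rows with an identifier, the TPM columns sum to 59.1% (DMSO replicate 3) to 78.3% of their nominal total. Of 65807 rows, 26480 without an identifier (0.00385% to 0.00515% of counts) were left out. Of the 39168 identifiers, 38259 matched a symbol and 159 stood on more than 1 row.

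Counts were tested with edgeR 4.0.16 in R 4.3.3 (TMM, filterByExpr by group, glmQLFit and glmQLFTest, all 6 libraries, no block) over all genes. Alternatives used DESeq2 1.42.0, limma 3.58.1 on log2(TPM + 1), other filters, factors and offsets, and left-out libraries. A loess fit with a span of 0.5 gave the length and GC offsets. CPM are counts scaled to library sizes with TMM factors. Steps were tested on simulated data. Tables were joined with pandas 2.3.3 in Python 3.11.15 and drawn with matplotlib 3.10.9. The members and lists were chosen with earlier results of these data known. Named were all members, the called pathway genes, the 2 most abundant genes (by TPM) of each role, and the 2 pseudogenes of each ferritin gene with most reads. Other pathway genes are named where a setting calls them or where said. Columns of both tables were matched to samples by name.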

Additional observations from a re-analysis of the deposited data

How the results depend on the processing

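There were 23 alternative settings, 18 set beforehand and 5 added after seeing the data (GC content offset, alone, with the replicate block, with gene length or without DMSO replicate 3, and an offset on annotated transcript length); 22 of them are fits that give each gene a fold change. Gene length in these settings is the length recovered from count and TPM, not an annotated one. The 2 members called higher became 1, TFRC, with the gene length offset, with the replicate block and gene length offset, with the gene length and GC content offset, and with limma on log2(TPM + 1) without a filter. With the offset on annotated transcript length they stayed 2. The 0 called lower stayed 0 in all. FTL, FTH1, TFRC and SLC40A1 kept their direction in all 22 fits, GPX4 in 19, IREB2 and LPCAT3 in 17, and AIFM2 and ACSL4 in 16. The 6 other pathway genes called higher ranged from 3 to 8 when 1 library was left out (3 without any 1 of the erianin libraries, 8 without DMSO replicate 3), and the 2 called lower from 0 to 2. The latter count was 0 in the 3 limma fits on TPM (pseudocount 1, pseudocount 0.1 and no filter), 4 with the GC content offset, alone or with the replicate block, 5 with the transcript length offset, 7 with the gene length and GC content offset and 6 on the adjusted p alone. With the replicate block alone it was 1, and FTL (log2 fold change 0.73, edgeR adjusted p = 0.0192) and TFRC were still called. Deviations of libraries with the same number from their group means correlated at 0.00138, 0.0253 and -0.0329. With 3 libraries per group and DMSO replicate 3 far from the other controls, this cannot show whether such libraries were handled together. The cause of these shifts was not tested. Over all genes, the 688 higher and 431 lower became 384 and 281 with the block, 172 to 184 and 126 to 144 without an erianin library, 1485 and 797 without DMSO replicate 3, 1098 and 94 with limma on log2(TPM + 1), and 533 and 1181 with the gene length and GC content offset. The last 2 moved the median log2 fold change of all genes to 0.18 and -0.16.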
